A study of Mus musculus with 15 samples.

Results

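Valine tRNA fragments in mouse sperm were followed across 15 small RNA libraries as 3 rows of the count table, ValAAC, ValCAC and ValTAC. The members were chosen by name, as every row of the table for a tRNA fragment (tRF) of a valine tRNA, and they are 3 of the 47 tRFs listed. The last 3 letters of each name are the anticodon of the parent tRNA. The table merges all fragments of an anticodon into 1 value, so a row does not tell which end of the tRNA a read came from. The caudal epididymal sperm came from C57BL/6NTac males of 2 generations. F0 males were fed either a control diet (CO F0, n = 3) or a lard-based, high-fat obesity-inducing diet (OID F0, n = 4) from weaning for 7 weeks. F1 males were sons of the CO lineage (CO F1, n = 4) or of the OID lineage (OID F1, n = 4), and both F1 groups ate only the control diet. The labels name no transgene or mutation. The F1 litters were cross-fostered and pooled from several dams, and the labels do not say which F1 male descends from which F0 male. RNA of 30 to 45 nt was cut from a gel after the libraries had been barcoded and pooled, and sperm were freed of somatic cells with a lysis buffer.

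Cells use tRNAs that carry the same amino acid but read different codons, called isoacceptors, and valine has 3 of them in the mouse nuclear genome. Fragments cut from tRNAs, mostly from their 5′ part, are among the most abundant small RNAs of mature sperm, and many are acquired while sperm pass through the epididymis. Sperm tRFs are known to respond to paternal diet in mice. Valine is, with leucine and isoleucine, a branched-chain amino acid.

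The RefSeq annotation of GRCm38.p6 lists 22 nuclear valine tRNA genes of 72 to 73 bases that carry 1 of these anticodons. ValAAC has 8 loci, ValCAC 11 and ValTAC 3. Chromosome 13 holds 10 of the 22, none of them a ValTAC gene. Against the GENCODE M21 annotation, 16 loci lay outside any gene, 6 lay in introns and 0 in exons. The intronic loci were n-TVaac1 in Ubr4, n-TVaac3 in the long non-coding RNA gene Gm11290, and n-TVaac4, n-TVaac6, n-TVcac4 and n-TVcac11 in the long non-coding RNA gene 4930557F10Rik. A sequence was read for 1 nuclear valine tRNA gene, n-TVcac9, at chr13:23446142-23446214 on the minus strand, outside GENCODE genes. It is shown because ValCAC was the most abundant member, and the mitochondrial valine tRNA mt-Tv, at chrM:1025-1093 on the plus strand, is shown beside it because it has the anticodon of ValTAC. Both run 5′ to 3′ on the GRCm38 build as DNA letters, with the anticodon in capitals.
n-TVcac9: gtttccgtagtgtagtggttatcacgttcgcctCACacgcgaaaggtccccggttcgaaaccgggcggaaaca
mt-Tv: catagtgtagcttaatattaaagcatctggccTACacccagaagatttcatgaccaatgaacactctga
In n-TVcac9, 33 bases stand before the anticodon, which occupies bases 34 to 36 counted from the 5′ end. The first 30 bases of both genes are the same at 12 positions. The table does not say whether reads of the mitochondrial tRNA were counted in the ValTAC row. Mouse tRNAs with the AAC and CAC anticodons are near-identical outside the anticodon, so a read that ends before it could have come from either. The study added shared reads, weighted by alignment score, to each tRNA's unique reads.

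The deposited value of each tRF is its read count multiplied by 1 factor per library, plus 0.5. All 705 tRF values came out as whole reads within 0.01 read after that factor and offset were taken out. The libraries held 17966 to 5363471 tRF reads. Only replicate 3 of CO F0 (17966) and replicate 2 of CO F1 (35677) held fewer than 100000. The valine tRFs rested on 354 to 401676 reads a library, and the 95% Wilson interval of their summed share of tRF reads was at most 0.407 percentage points wide. Such intervals cover counting error only, since reads were not collapsed to molecules. A read shared between valine tRNAs may have entered more than 1 row, so the summed reads need not all be distinct. The same-group libraries differed by far more than read sampling (chi-square per degree of freedom of at least 32.2 in 21 pairs), so none was another one sequenced again. The comparison cannot tell repeat library preparations of the same sperm from separate males. In sperm as in any bulk sample, fewer cells that carry a fragment and less of it per cell cannot be told apart.

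ValCAC was the most abundant valine tRF in 14 of 15 libraries and ranked 3 to 13 among the 47 tRFs of a library. ValAAC ranked 6 to 18 and ValTAC 9 to 26. The order ValCAC, ValAAC, ValTAC held in 13 libraries. Replicate 3 of OID F0 had ValTAC above ValAAC, and replicate 4 of OID F1 had ValTAC above both. These levels are not divided by length, and the parent genes are all of 72 to 73 bases. Each member spanned about the same range over the libraries, 12.0-fold for ValAAC, 11.2-fold for ValCAC and 12.4-fold for ValTAC, from lowest to highest value.

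**Figure D1:**
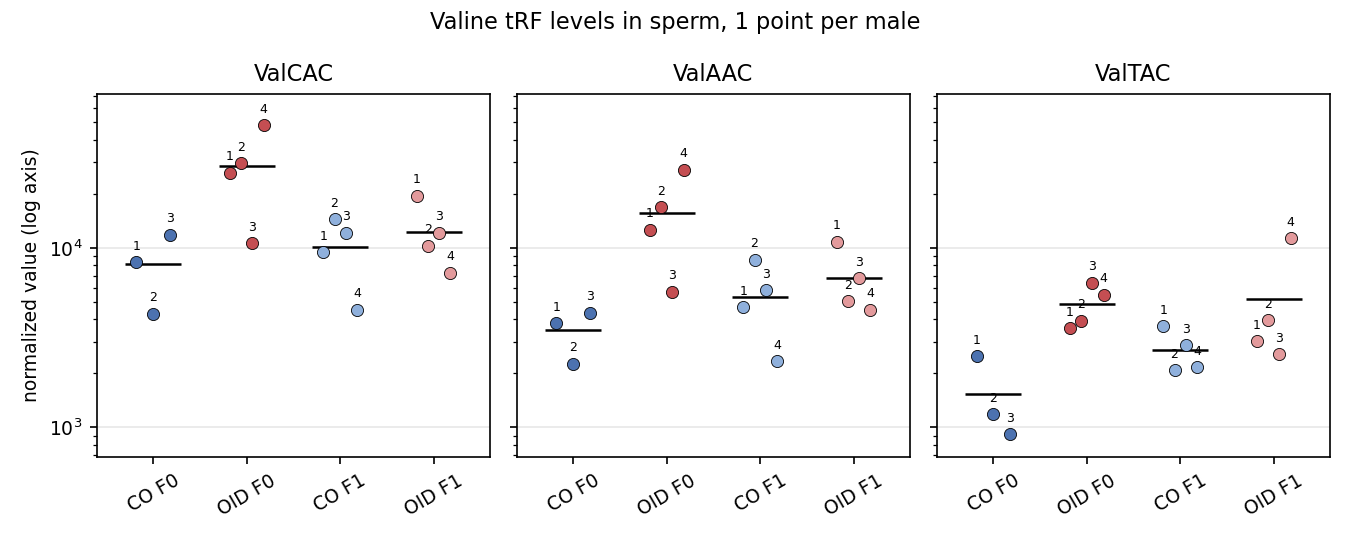
Normalized value (vertical log axis) of ValCAC, ValAAC and ValTAC in the 15 sperm libraries, 1 point per male with its replicate number, and a bar at the group mean. In the OID F0 group, replicates 1, 2 and 4 stand highest for ValCAC and ValAAC, and replicate 3 stands highest for ValTAC. Replicate 4 of OID F1 holds the highest ValTAC value, 11311.

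In F0 males, the question was whether the obesity-inducing diet changed sperm tRFs of the exposed animals. All 3 valine tRFs had higher mean levels in OID F0 than in CO F0, by 3.16 to 4.49 times. ValAAC stood at 3811, 2258 and 4337 in the CO F0 males and at 12605, 16825, 5706 and 27159 in the OID F0 males, with means of 3468 ± 1081 (SD, n = 3) and 15574 ± 8981 (SD, n = 4). The groups did not overlap, and replicate 3 of OID F0 lay closest to the controls. ValTAC stood at 2493, 1186 and 916 in CO F0 and at 3552, 3919, 6397 and 5488 in OID F0, with means of 1532 ± 843 (SD, n = 3) and 4839 ± 1336 (SD, n = 4). These groups did not overlap either, and the OID F0 male with the lowest ValAAC had the highest ValTAC. The lowest ValTAC value, in replicate 3 of CO F0, rested on 19 reads, or 0.106% of tRF reads with a 95% Wilson interval of 0.0677% to 0.165%. ValCAC stood at 8291, 4291 and 11804 in CO F0 and at 26193, 29485, 10585 and 48240 in OID F0, with means of 8129 ± 3759 (SD, n = 3) and 28626 ± 15458 (SD, n = 4). Replicate 3 of OID F0 lay below replicate 3 of CO F0, so the groups overlapped in 1 of their 12 pairs.

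The fitted log2 fold change between the F0 groups, on the log2(value + 1) scale, was 2.01 for ValAAC (SE 0.54), 1.75 for ValTAC (SE 0.42) and 1.74 for ValCAC (SE 0.57). These were the 3 largest of the 47 tRFs, whose median was 0.02. None passed an adjusted p of 0.05 in limma with Benjamini-Hochberg adjustment over 47 tRFs, where the adjusted p was 0.0733 for ValAAC (unadjusted 0.00624), 0.0733 for ValTAC (unadjusted 0.00318) and 0.109 for ValCAC (unadjusted 0.0162). No tRF of the table passed, so the background was 0%. At an unadjusted limma p under 0.05, all 3 valine tRFs were higher, against a background of 12.8% of tRFs higher. Groups that did not overlap, with OID F0 above, were found for 2 of the 3 members against a background of 10.6%. Both backgrounds are over all 47 tRFs, the members included, and reads shared by ValAAC and ValCAC may count in both rows. ValCAC lost this unadjusted call with the replicate number as a block (log2 fold change 1.43) and without replicate 2 of CO F0 (1.34). The two-sided exact permutation p on the log2 values was 0.0571 for ValAAC and for ValTAC, the smallest that 3 against 4 males can give, and 0.114 for ValCAC.

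The call in F0 males turned with the fit. With all 4 groups in 1 limma fit, all 3 members passed, with an adjusted p of 0.0306 for ValAAC, 0.0306 for ValTAC and 0.0331 for ValCAC, where 12.8% of tRFs passed. With limma-voom on the recovered reads, ValAAC and ValTAC passed with an adjusted p of 0.0388 each, where 10.6% of tRFs passed, and ValCAC had an adjusted p of 0.0682. Without replicate 1 of CO F0, ValTAC passed limma with a log2 fold change of 2.17 and an adjusted p of 0.0374. In that fit 1 of 47 tRFs passed. Without replicate 3 of OID F0, ValAAC passed limma with a log2 fold change of 2.42 and an adjusted p of 0.0273, where 2 of 47 tRFs passed. Over the alternatives other than leaving out 1 library, the log2 fold change stayed between 1.66 and 2.63 for ValAAC, 1.39 and 2.44 for ValCAC, and 1.40 and 1.76 for ValTAC. CO F0 was also the group with the shallowest library, and its libraries held 17966 to 341927 tRF reads against 295389 to 5363471 in OID F0. When log2 depth entered the fit as a covariate, the fold changes became, on the log2 scale, 2.63 for ValAAC, 2.44 for ValCAC and 1.41 for ValTAC, and none passed in limma.

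**Figure D2:**
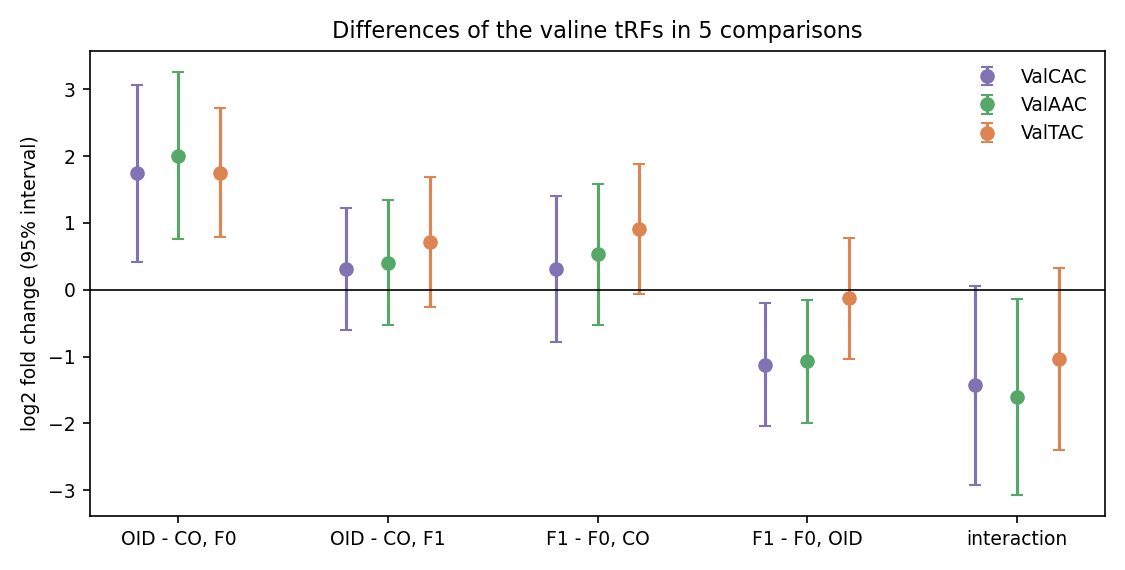
Fitted log2 fold change (vertical axis, points) with its 95% interval (bars) for the 3 valine tRFs in 5 comparisons: OID minus CO in F0 and in F1, F1 minus F0 in the CO and in the OID lineage, and the interaction of lineage diet and generation. The 3 F0 intervals lie above 0, and the F1 intervals of OID minus CO all include 0.

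In F1 males, the question was whether sons of OID fathers, themselves on the control diet, differed from sons of CO fathers. No valine tRF passed the adjusted threshold of limma, though each mean was higher in OID F1. ValCAC stood at 9470, 14393, 12126 and 4510 in CO F1, with a mean of 10125 ± 4250 (SD, n = 4), and at 19539, 10270, 12090 and 7264 in OID F1, with a mean of 12291 ± 5226 (SD, n = 4). ValAAC stood at 4661, 8576, 5804 and 2330 in CO F1 (5343 ± 2595, SD, n = 4) and at 10829, 5047, 6765 and 4514 in OID F1 (6789 ± 2860, SD, n = 4). Both overlapped widely between the groups. ValTAC stood at 3652, 2083, 2869 and 2162 in CO F1 (2692 ± 731, SD, n = 4) and at 3012, 3941, 2553 and 11311 in OID F1 (5204 ± 4112, SD, n = 4). The higher mean of ValTAC in OID F1 came largely from replicate 4, a library of 4924160 tRF reads. The log2 fold change was 0.31 (95% interval -0.61 to 1.23) for ValCAC, 0.41 (-0.53 to 1.34) for ValAAC and 0.72 (-0.26 to 1.69) for ValTAC. Without replicate 4 of OID F1 the ValTAC value was 0.25. The limma adjusted p was 0.599, 0.580 and 0.376 for ValCAC, ValAAC and ValTAC, and 0 of 3 members had an unadjusted limma p under 0.05, where 6.38% of tRFs were higher at that threshold. The two-sided exact permutation p was 0.543, 0.457 and 0.20 in the same order, and the smallest that 4 against 4 males can give is 0.0286. The OID F1 libraries were deeper, 1684563 to 4924160 tRF reads against 35677 to 2675346 in CO F1, and with depth as a covariate the log2 fold changes were 0.64, 0.86 and 0.19.

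Between generations of the OID lineage, ValAAC and ValCAC had lower mean levels in the sons, and ValTAC did not. The OID F1 mean was 0.436 times the OID F0 mean for ValAAC, 0.429 times for ValCAC and 1.08 times for ValTAC. For ValTAC, replicate 4 of OID F1 stood at 11311 and the other sons lay between 2553 and 3941. The log2 fold change was -1.07 for ValAAC (SE 0.44) and -1.12 for ValCAC (SE 0.44), the lowest 2 of 47 tRFs, and -0.13 for ValTAC (SE 0.43). ValTAC changed sign with the scaling, to 0.10 when libraries were rescaled without the dominant tRFs GlyGCC and GluCTC and to 0.013 as a share of tRF reads. The ValTAC value was -0.59 (SE 0.41) without replicate 4 of OID F1 and 0.12 (SE 0.46) without replicate 3 of OID F1. None of the 3 passed in limma, with an adjusted p of 0.249 for ValAAC (unadjusted 0.0256), 0.249 for ValCAC (unadjusted 0.0201) and 0.850 for ValTAC, where the background was 0%. At an unadjusted limma p under 0.05, ValAAC and ValCAC were lower in the sons, against a background of 10.6% of tRFs lower. Both lost this unadjusted call with log2 depth as a covariate, where ValAAC stood at -0.61 (SE 0.43) and ValCAC at -0.72 (SE 0.44) and 0 of 47 tRFs met it. Both also lost it when libraries were rescaled without GlyGCC and GluCTC (-0.84 and -0.89), without replicate 4 of OID F0 (-0.74 and -0.81), and without replicate 2 (-0.96 and -1.07) or replicate 4 (-0.91 and -0.90) of OID F1. ValAAC lost it too without replicate 2 of OID F0 (-0.97). The OID F1 libraries held 1684563 to 4924160 tRF reads against 295389 to 5363471 in OID F0. All 3 members overlapped between the groups, where 2.13% of tRFs did not overlap with the sons lower. The two-sided exact permutation p was 0.114 for ValAAC, 0.0857 for ValCAC and 0.83 for ValTAC. Without replicate 3 of OID F0, ValAAC (-1.49) and ValCAC (-1.54) passed limma with an adjusted p of 0.0424, and ValTAC stood at 0.020. ValAAC and ValCAC were the only 2 of 47 tRFs that passed in that fit. Each passed in only 1 of the 8 fits that left out 1 library.

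Between generations of the CO lineage the sons had higher means, by 1.54 times for ValAAC, 1.25 times for ValCAC and 1.76 times for ValTAC. None of these differences passed the adjusted threshold of limma. The log2 fold change was 0.53 (SE 0.49), 0.31 (SE 0.50) and 0.91 (SE 0.45) in that order, with a limma adjusted p of 0.840, 0.895 and 0.807, and 0 of 3 had an unadjusted limma p under 0.05, where 0% of tRFs were higher. The two-sided exact permutation p was 0.286, 0.457 and 0.171. ValTAC met the unadjusted limma threshold with the replicate number as a block (log2 fold change 1.00). It also met it without replicate 1 of CO F0 (1.33) and without replicate 2 of CO F1 (1.02). In these fits 5, 3 and 3 of 47 tRFs met it in either direction. Each of the 4 comparisons shares its groups with 2 of the others, so the values are not separate evidence.

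The difference between the diet effects of the 2 generations was tested directly as an interaction of lineage diet and generation over the 15 libraries. It was -1.60 for ValAAC (SE 0.70), -1.43 for ValCAC (SE 0.71) and -1.04 for ValTAC (SE 0.65), a smaller fitted diet difference in F1 than in F0 for each. All 3 had an adjusted p of 0.657 in limma, with an unadjusted p of 0.0335, 0.0586 and 0.126 in that order. The interaction was lower at an unadjusted p under 0.05 for 1 member, ValAAC, against a background of 4.26% of tRFs. ValAAC lost it when libraries were rescaled without GlyGCC and GluCTC (-1.18) and in 7 of the 15 fits that left out 1 library. Other settings added members at that threshold. Among them, ValCAC met it as a share of tRF reads (-1.45), with log2 depth as a covariate (-1.51) and with limma-voom (-1.52). ValTAC met it without replicate 1 of CO F0 (-1.46) and without replicate 4 of OID F1 (-1.50). In these fits 2 to 4 of 47 tRFs met it, and none passed after adjustment.

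As a share of tRF reads, which does not depend on the deposited scaling, the 3 valine tRFs together took 2.71%, 1.10% and 1.97% in the CO F0 males and 7.49%, 5.12%, 4.32% and 7.17% in the OID F0 males. The means were 1.93% ± 0.804 (SD, n = 3) and 6.02% ± 1.55 (SD, n = 4), a difference of 4.10 percentage points. The groups did not overlap. The CO F1 males had 2.57%, 3.74%, 3.32% and 1.79% (2.85% ± 0.861, SD, n = 4) and the OID F1 males 4.50%, 2.91%, 3.07% and 3.54% (3.51% ± 0.716, SD, n = 4). These groups overlapped, with a difference of 0.653 points that became 0.297 without replicate 4 of CO F1 and 0.320 without replicate 1 of OID F1. OID F1 minus OID F0 was -2.52 points, and in 1 of the 16 pairs a son exceeded an OID F0 male. No test was run on a sum over members. ValCAC alone took on average 1.17% and 3.48% in CO and OID F0 and 1.59% and 1.76% in CO and OID F1, ValAAC 0.510%, 1.86%, 0.836% and 0.972%, and ValTAC 0.246%, 0.683%, 0.431% and 0.776% in the same order. On this scale ValCAC no longer overlapped between the F0 groups, and ValTAC did in 1 of 12 pairs. How many of all tRFs did not overlap on this scale was not counted, so these results have no background. In limma on the shares, no valine tRF passed between the F0 groups. The limma adjusted p was 0.165 for ValAAC, 0.195 for ValCAC and 0.218 for ValTAC, with log2 fold changes of 1.87, 1.61 and 1.62.

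**Figure D3:**
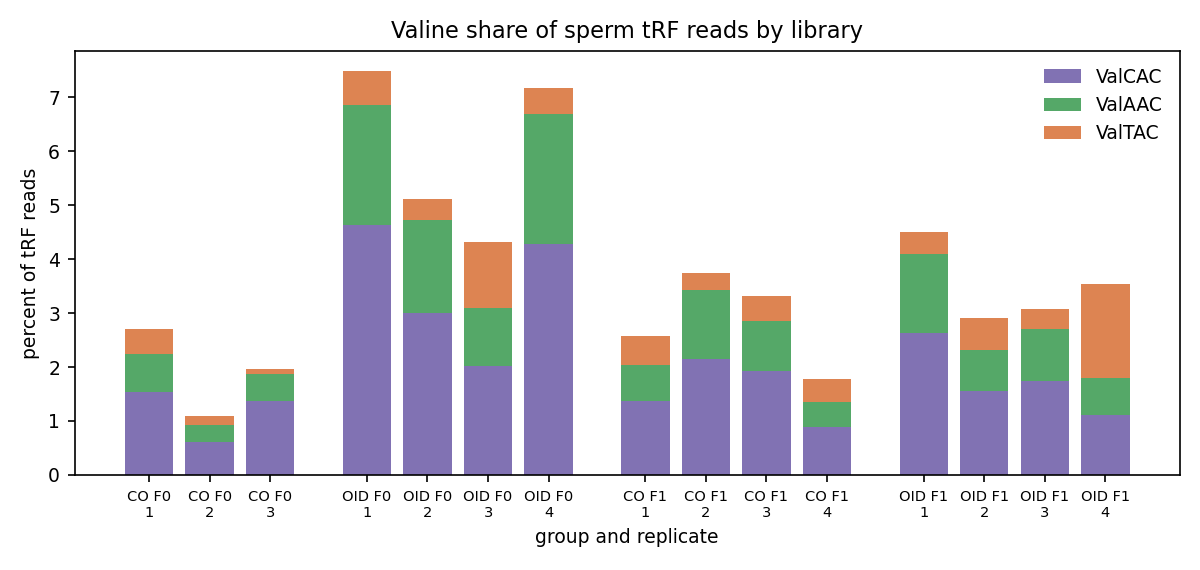
Share of tRF reads taken by ValCAC, ValAAC and ValTAC (vertical axis, percent), as 1 stacked bar per library labelled with its group and replicate number. The height of a bar is the summed share. The OID F0 males sit between 4.32% and 7.49%, above every CO F0 male (at most 2.71%), and the F1 groups overlap.

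Ratios within a library do not depend on its scaling, and they separated ValTAC from the other members. ValAAC to ValCAC ran only from 0.367 to 0.621 over the 15 libraries, a 1.69-fold range. Its group means were 0.451 ± 0.0798 for CO F0 (SD, n = 3), then, with n = 4 each, 0.538 ± 0.0405 for OID F0, 0.521 ± 0.0524 for CO F1 and 0.557 ± 0.0531 for OID F1. The levels of both members thus varied far more than their ratio did. Reads shared by these near-identical tRNAs may be counted in both rows, and the effect of this on the ratio was not tested. ValTAC to ValCAC ran from 0.0776 to 1.56, a 20.1-fold range, and ValTAC to ValAAC from 0.202 to 2.51, a 12.4-fold range. ValTAC exceeded ValAAC in 2 libraries, replicate 3 of OID F0 (ratio 1.12) and replicate 4 of OID F1 (ratio 2.51). The lowest ValTAC to ValCAC ratio came from replicate 3 of CO F0, the shallowest library. Of all valine reads, ValTAC made up 5.37% to 49.0% in a library.

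No difference of a ratio between groups was called, but these tests could not have called one. The smallest possible two-sided exact permutation p was 0.0571 for 3 against 4 males and 0.0286 for 4 against 4. Neither could fall under 0.05 after Benjamini-Hochberg adjustment over the 12 tests. Across 3 ratios and 4 comparisons, the two-sided exact permutation p ran from 0.114 to 0.914 and the adjusted p over the 12 tests from 0.873 to 0.914, and all groups overlapped. The largest difference of mean log2 ratio was 0.99, for ValTAC to ValCAC in OID F1 against OID F0. It became 0.31 without replicate 4 of OID F1 and 1.56 without replicate 3 of OID F0. For ValAAC to ValCAC the 4 differences were 0.27 between diets in F0, 0.10 between diets in F1, 0.22 between generations in the CO lineage and 0.05 in the OID lineage. For ValTAC to ValAAC they were -0.26, 0.31, 0.38 and 0.95 in that order, and for ValTAC to ValCAC 0.01, 0.40, 0.60 and 0.99. The differences of the ratios with ValTAC in F0 changed sign when 1 library was left out: without replicate 3 of CO F0, ValTAC to ValCAC stood at -0.62.

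**Figure D4:**
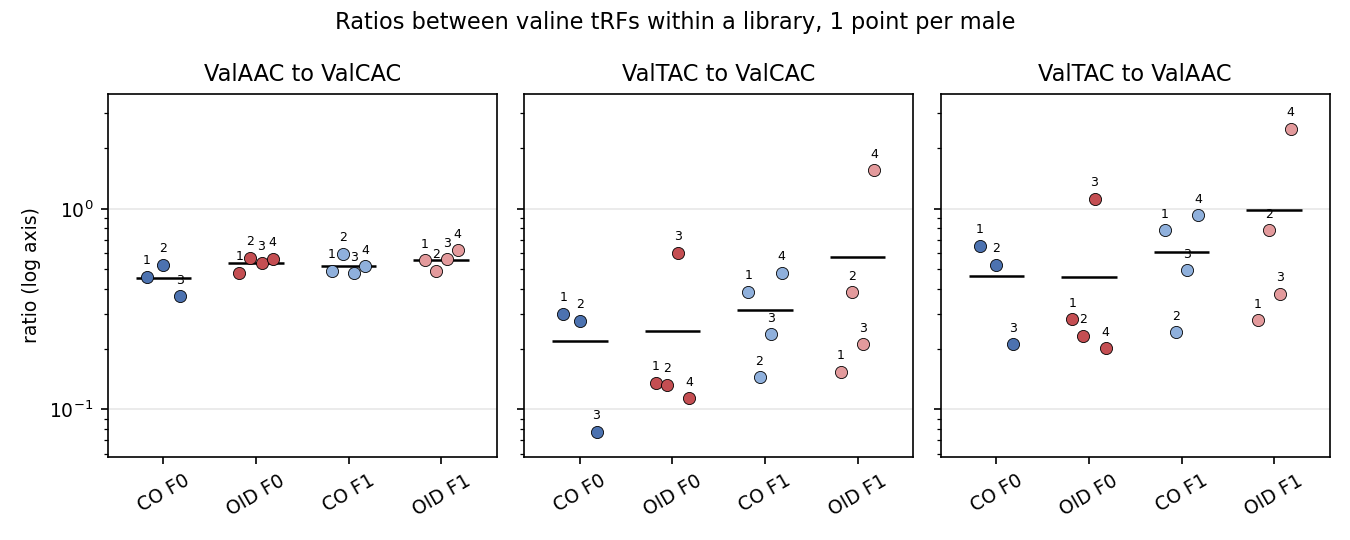
Ratios between the valine tRFs within each library (vertical log axis), 1 point per male with its replicate number, and a bar at the group mean. ValAAC to ValCAC stays between 0.367 and 0.621 in all 15 libraries, and ValTAC to ValCAC spreads from 0.0776 to 1.56.

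To set these ratios beside those of other amino acids, the SD over 15 libraries of the log2 ratio was taken for every pair of isoacceptors among the 28 tRFs that reached 10 reads in each of the libraries. Of 20 such pairs, ValAAC to ValCAC ranked 3 from the lowest SD, with 0.185, after ProAGG to ProCGG (0.0587) and LeuAAG to LeuTAG (0.104). GlyCCC to GlyGCC followed with 0.193. ValTAC to ValAAC (1.06) and ValTAC to ValCAC (1.11) ranked 16 and 17, against a median of 0.675 over the pairs. Valine thus held both one of the steadiest and a pair of the least steady ratios among the isoacceptor pairs measured. These values describe 15 libraries that differ in depth and group, and no test was made of them. Shared reads may count in both rows of a pair, so ValAAC and ValCAC need not be separately measured fragments.

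**Figure D5:**
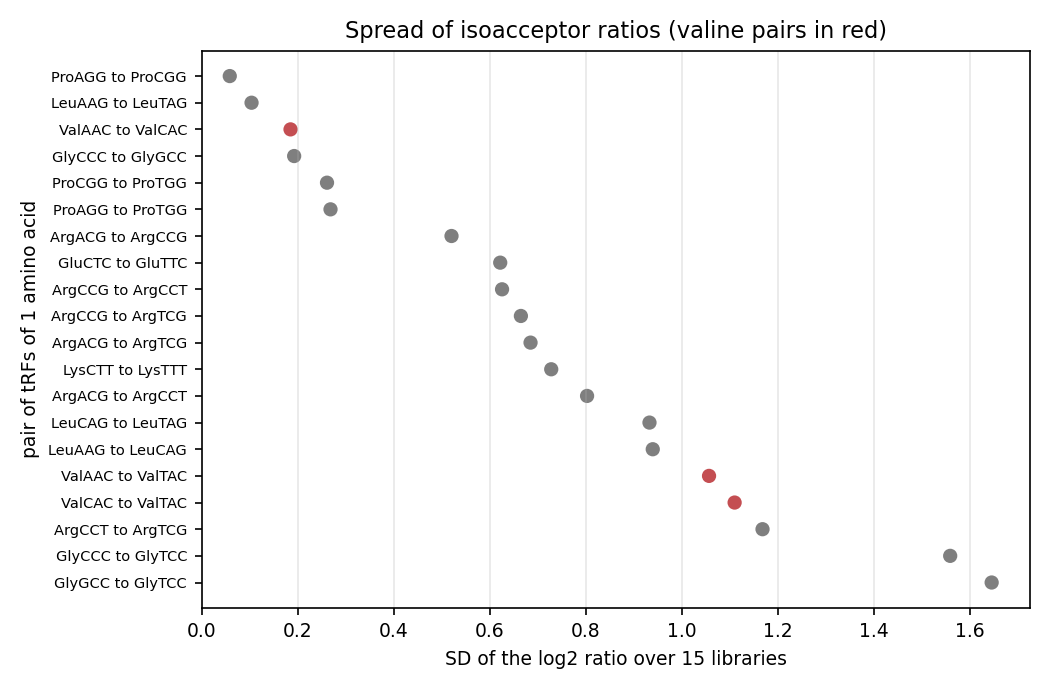
SD over 15 libraries of the log2 ratio (horizontal axis) for 20 pairs of tRFs of the same amino acid (rows), with the valine pairs in red. ValAAC to ValCAC ranks 3 from the top with 0.185, and the pairs with ValTAC lie at 1.06 and 1.11.

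By the same measure, over all 27 other tRFs with enough reads, the tRF most like ValAAC was ValCAC (SD 0.185), followed by GlnCTG (0.546) and LysTTT (0.715), where the median over the 27 was 1.10. For ValCAC the next were GlnCTG (0.540) and LysTTT (0.725). The match of ValAAC and ValCAC carries the same limit of shared reads. ValTAC had no close match: LysTTT (0.875), MetCAT (0.876) and GluTTC (0.901) came first, where its median was 1.07. In F0 males the log2 fold change of OID against CO was 1.31 for GlnCTG, 1.15 for LysTTT, 0.90 for GluTTC and 0.42 for MetCAT, each below the valine values, and none passed in limma.

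The 7 leucine and isoleucine tRFs had a median log2 fold change of -0.44 between the F0 diets, where the 3 valine tRFs lay between 1.74 and 2.01 and all 47 tRFs had 0.02. None of the 7 passed the adjusted threshold of limma in any of the 4 comparisons between groups. At an unadjusted limma p under 0.05, 1 of 7 was lower in OID F0, LeuCAG (log2 fold change -0.79, SE 0.30), where 8.51% of all tRFs were lower. LeuCAG, the most abundant leucine tRF, had a mean of 12188 ± 4058 in the 3 CO F0 males and 6857 ± 920 in the 4 OID F0 males (SD), with an adjusted p of 0.162 in limma (unadjusted 0.0310). IleAAT, the most abundant isoleucine tRF, stood at 427 ± 63.6 in the 3 CO F0 males and, in groups of 4, at 470 ± 228 in OID F0, 608 ± 307 in CO F1 and 681 ± 226 in OID F1 (SD). Between generations of the OID lineage, where ValAAC and ValCAC were lower in the sons, the median of the 7 was 0.56, and 1 of 7, IleTAT, was higher at an unadjusted limma p under 0.05 (log2 fold change 0.97, SE 0.42, adjusted p = 0.249), where 6.38% of all tRFs were higher. The medians between diets in F1 and between generations of the CO lineage were 0.28 and 0.42.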

How the data were processed

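Small RNA libraries of sperm were sequenced for 15 males. The authors trimmed reads with Trimmomatic, mapped them with Bowtie2 2.3.4.1 to mm10, annotated them with blastn and weighted reads shared between tRNAs by alignment score. The deposited table holds normalized signal that the authors name TPM, made with 1 scaling factor per library. The sum over all entries of 1 library reached 1128164, above what TPM allows, so the values were treated as scaled counts. The submitters' notes also list DESeq2 without a version. The 164 miRNA and 4 mature tRNA entries were not used. From the values, reads were recovered by taking out the offset of 0.5 and the factor. The test was limma 3.58.1 in R 4.3.3 on log2(value + 1), with the 2 groups compared in a fit, Benjamini-Hochberg adjustment over 47 tRFs and a threshold of 0.05. Ratios were tested with two-sided exact permutation tests in scipy 1.17.1. Scripts were tested on simulated data. p-values measure the spread between the males sequenced.

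The members and lists were chosen with earlier results of these data known. Besides the 3 valine tRFs, tRFs were named by rule: the 3 with the lowest SD of the log2 ratio to each member, and, of the leucine and isoleucine tRFs, the most abundant of each and those with an unadjusted p under 0.05. Alternatives changed the pseudocount (0.1 or 10), the filter on low values (mean of at least 100), the scaling, the fit, the libraries, the offset and a depth covariate. Locus positions came from RefSeq and GENCODE tables, and sequences for ValAAC and ValTAC genes were not used here.

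Replicate numbers recur in each group. Deviations of same-numbered males from their group means correlated from -0.479 to 0.530 over 14 pairs, and 6 pairs exceeded 0.1. Only in the generation comparison of the CO lineage did all 3 pairs exceed 0.1, and the labels give no source of pairing.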

Additional observations from a re-analysis of the deposited data

Results flagged for a closer look

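The ValTAC to ValCAC ratio of replicate 3 of OID F0 stood far from its group. It was 0.604, and the other 3 OID F0 males lay between 0.114 and 0.136. On the log2 scale, the gap to the nearest of them took up 0.895 of the whole range of the group. That gap passed Dixon's 95% critical value for 4 samples. This was 1 flag among 24 groups tested, and chance flags about 1 group in 20. The same male had the highest ValTAC value and the lowest ValAAC and ValCAC values of OID F0. The cause was not tested.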

How the results depend on the processing

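In F0 males, 0 valine tRFs passed, and this count became 3 with all 4 groups in 1 fit, 2 with limma-voom on recovered reads, and 0 to 1 when 1 library was left out. The F1 diet comparison, the CO generation comparison and the interaction kept a count of 0 under every alternative run, and the OID generation count ran from 0 to 2 when 1 library was left out. With the replicate number as a block, the F0 log2 fold changes were 1.67 for ValAAC, 1.43 for ValCAC and 1.68 for ValTAC. The limma adjusted p was 0.229, 0.281 and 0.229 in that order. The block changed no adjusted call of a valine tRF in any comparison, that of the CO lineage included. At the unadjusted limma threshold it did change calls. ValCAC lost its call in F0 males, and ValTAC gained one between CO generations (log2 fold change 1.00).

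ValTAC between OID generations (-0.13) became 0.10 rescaled without GlyGCC and GluCTC and 0.013 as a share of tRF reads, and ran from -0.59 to 0.12 when 1 library was left out. ValCAC ran from -0.037 to 0.53 between diets in F1 and from -0.090 to 0.66 between CO generations. Among ratios, with libraries of at least 100000 reads ValTAC to ValCAC in F0 became -0.62 and ValTAC to ValAAC in F1 became -0.079, and within same-numbered males (replicate block) ValTAC to ValAAC in F0 became 0.0068. Leaving out 1 library gave ranges of -0.62 to 0.36 (F0 diet), -0.28 to 0.83 (F1 diet) and -0.031 to 0.95 (CO generations) for ValTAC to ValCAC. For ValTAC to ValAAC they were -0.82 to 0.068, -0.32 to 0.73 and -0.11 to 0.77, and between OID generations 0.31 to 1.56 for ValTAC to ValCAC, 0.31 to 1.51 for ValTAC to ValAAC and, for ValAAC to ValCAC, -0.0084 to 0.10. As a share of tRFs without GlyGCC and GluCTC, the summed difference was 14.4 points in F0, 4.05 in F1 and -8.67 between OID generations, since the denominator was smaller. That rescaling moved the F0 median of all tRFs from 0.02 to -0.33. On all tRFs, the F1 share difference ran from 0.297 to 0.948 points when 1 library was left out. The causes of the other changes were not tested.

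The negative binomial test planned on recovered reads was not run, because the deposited unit is normalized. Groups held only 3 to 4 males, same-group libraries differed beyond read sampling, and the ValTAC value of replicate 3 of CO F0 rested on 19 reads.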
